A study of Mus musculus with 9 samples.

Results

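The 42 genes described here mark microglia, the resident macrophages of the brain. A homeostatic set of 15 genes marks the cells in undisturbed tissue, and a reactive set of 27 genes includes those that microglia and other phagocytes turn on around damaged tissue. The genes were listed by symbol for their known roles, and all 42 were found among the 54532 gene IDs of the count tables. Polyadenylated RNA of the striatum, the input nucleus of the basal ganglia, was sequenced as paired Illumina reads in 9 mouse libraries. The groups were STING-deficient mice (STING KO), cGAS-deficient mice (cGAS KO) and wild-type mice (WT), with 3 libraries each. All were on a C57BL/6J background, and both deficient lines were made with CRISPR-Cas9. cGAS is the cytosolic DNA sensor that makes cGAMP, and STING is the receptor that binds cGAMP and starts the interferon response. The series speaks of ischemic stroke for the brains of the deficient mice. Whether the WT mice had a stroke, and the time after it, the age and the infarct size, are not stated in the labels, so an injury that WT lacked and the genotype cannot be told apart in the comparisons with WT. The libraries are of bulk tissue, in which fewer microglia and less RNA per microglial cell cannot be told apart.

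Microglia depend on CSF1R, the receptor for CSF1 and IL-34, for survival, and on SALL1 and other transcription factors for their identity. In intact tissue they carry purinergic and chemokine receptors such as P2RY12 and CX3CR1, with which they sense nucleotides and the neuronal chemokine fractalkine. When they meet lipid, debris or dying cells, the receptor TREM2 signals through its adaptor TYROBP, and genes of lipid handling, lysosomes and phagocytosis are turned on while the homeostatic genes are turned down. Several genes of the reactive programme, among them Apoe, Fth1, Cd9 and the cathepsins, are also made by astrocytes, oligodendrocytes or neurons.

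Promoter sequences are shown for 4 members whose levels frame the results: Cx3cr1, the member with the smallest p-value over all 9 libraries, Cst3, the most abundant homeostatic member, Trem2, the receptor of the reactive programme, and Cst7, a reactive gene that was almost absent. Each is the 250 bases before the RefSeq start (GRCm38.p6), read 5′ to 3′ on the gene's strand. Capitals mark GAGGAA or its reverse complement TTCCTC, the core of a site for PU.1, the transcription factor that specifies myeloid cells.

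Cx3cr1, chr9:120068297-120068546, minus strand: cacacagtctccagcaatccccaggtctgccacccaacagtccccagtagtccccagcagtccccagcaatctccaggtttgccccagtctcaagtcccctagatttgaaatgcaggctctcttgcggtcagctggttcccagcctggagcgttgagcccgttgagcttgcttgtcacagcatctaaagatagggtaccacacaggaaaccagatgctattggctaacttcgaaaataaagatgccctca
Cst3, chr2:148875513-148875762, minus strand: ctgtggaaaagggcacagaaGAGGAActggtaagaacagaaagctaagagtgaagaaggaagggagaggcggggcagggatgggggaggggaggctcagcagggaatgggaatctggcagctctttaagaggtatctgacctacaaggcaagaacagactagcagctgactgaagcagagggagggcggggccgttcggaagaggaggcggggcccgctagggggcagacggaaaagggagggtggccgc
Trem2, chr17:48346151-48346400, plus strand: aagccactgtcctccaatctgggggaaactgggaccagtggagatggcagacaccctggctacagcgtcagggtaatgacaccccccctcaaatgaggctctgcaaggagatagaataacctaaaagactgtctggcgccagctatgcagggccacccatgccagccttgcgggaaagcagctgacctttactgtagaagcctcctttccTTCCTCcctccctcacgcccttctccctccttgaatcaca
Cst7, chr2:150570165-150570414, plus strand: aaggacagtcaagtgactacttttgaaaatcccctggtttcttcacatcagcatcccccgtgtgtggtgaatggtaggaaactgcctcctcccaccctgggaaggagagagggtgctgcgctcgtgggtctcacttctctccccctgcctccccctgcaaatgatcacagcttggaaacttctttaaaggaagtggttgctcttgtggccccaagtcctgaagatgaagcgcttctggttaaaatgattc

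The Cst3 and Trem2 windows each hold 1 match, and the Cx3cr1 and Cst7 windows hold none of these 6 letters in a row on either strand. A promoter window was found for 32 of the 42 members, with 41 windows in all because some genes have several starts. The 6 letters stood in 14 of those 41 windows (34.1%), against 7639 of 32851 windows over all genes (23.3%). By gene they were present in 3 of 11 homeostatic members and 9 of 21 reactive members with a window. A member with several windows counted if any of them matched, and the share by gene over all genes was not counted. The matches describe the letters in these windows and were not tested against expression.

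Library totals ranged from 14129021 to 21286775 counts, and 17821 genes passed the filter on low counts. A level below is in counts scaled by library size and TMM factor (CPM), and mean ± SD is over the 3 libraries of a group. The labels do not say that replicates are separate animals, and the p-values measure the spread from library to library. The libraries that stood apart were 1 per group, STING KO replicate 2, cGAS KO replicate 2 and WT replicate 3. Genes with only 1 to 9 counts numbered 2280 to 4723 in these 3 and 7096 to 7927 in the other 6, and the 3 are called the libraries of low complexity. Transcripts of 79 ribosomal protein genes took 0.234% to 0.605% of counts in these 3 and 0.691% to 0.904% in the other 6. The biological coefficient of variation was 38.8% over 9 libraries and 17.2% over the other 6, so the members are given with and without these libraries. The targeted genes were low in every group. Cgas was at 1.55, 1.04 and 1.45 CPM in STING KO, at 1.10, 0.377 and 0.262 CPM in cGAS KO, and at 1.40, 2.63 and 3.18 CPM in WT. Sting1 (listed as Tmem173) was at 2.17, 1.04 and 1.84 CPM in STING KO, at 2.66, 1.66 and 2.75 CPM in cGAS KO, and at 4.06, 3.0 and 1.34 CPM in WT. The cGAS KO libraries lay below every WT library for Cgas, whereas the STING KO and WT libraries overlapped for Sting1. Edited exons were not given in the sources used here, and counts over a whole gene can miss such an edit.

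All 15 homeostatic members were measured in all 9 libraries, and the levels of the reactive set covered a wider range. TPM divide by library size and by the merged length of all annotated exons of a gene, which can exceed the length of a single transcript. They therefore compare genes only roughly. In TPM, Csf1r averaged 77.0 over the 9 libraries (70.7 to 99.0). Adgrg1 followed at 64.0 TPM, Cx3cr1 at 57.7 TPM (46.4 to 75.6) and P2ry12 at 54.0 TPM (45.4 to 70.9). The ranges of these 4 receptors over the libraries overlapped between neighbours in that order. Fcrls, a scavenger receptor found in rodents, averaged 34.3 TPM, and Tmem119, a surface protein used to tell microglia from other macrophages, 29.0 TPM. The lowest homeostatic averages were those of Slc2a5, a fructose transporter, at 4.79 TPM and of the transcription factor Irf8 at 3.95 TPM. Cst3, which encodes the secreted protease inhibitor cystatin C and is also made by astrocytes and neurons, was far above the rest at 1627 TPM (409 to 2792).

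The most abundant reactive members were ones that other brain cells also make. Fth1, the heavy chain of the iron store ferritin, averaged 1202 TPM, and Apoe, the lipid carrier that astrocytes secrete, averaged 1106 TPM. The lysosomal proteases Ctsb and Ctsd followed at 248 and 198 TPM. Others lay at the levels of the homeostatic members, among them Ctsz at 71.1 TPM, Cd9 at 64.1 TPM, Lpl at 52.7 TPM and Fabp5 at 47.5 TPM. Axl was at 38.9 TPM, Tyrobp at 22.8 TPM and Trem2 at 7.81 TPM. Several genes by which reactive microglia are usually told apart from resting ones were low or near 0 in every group. Spp1, encoding the secreted protein osteopontin, averaged 5.04 TPM, just above the lowest homeostatic members, Slc2a5 and Irf8. Gpnmb averaged 0.498 TPM and Lgals3, encoding galectin-3, 0.935 TPM.

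The count filter removed 5 reactive members, which were therefore not tested. Cst7, encoding the lysosomal protease inhibitor cystatin F, had 5, 0 and 2 counts in STING KO, 3, 0 and 0 counts in cGAS KO, and 2, 1 and 2 counts in WT. Itgax, encoding the integrin CD11c, had 7, 15 and 9 counts in STING KO, 7, 0 and 4 counts in cGAS KO, and 4, 1 and 0 counts in WT. Clec7a, encoding the fungal glucan receptor dectin-1, reached at most 4 counts in STING KO, 10 in cGAS KO and 8 in WT. These counts come from libraries of at least 14129021 counts, and for Cst7 and Clec7a the groups overlapped. The STING KO libraries were the highest for Itgax in CPM, at 0.435, 1.04 and 0.502, against 0.405, 0 and 0.262 in cGAS KO and 0.180, 0.0536 and 0 in WT. That order rests on at most 15 counts and has no test. Ch25h, the enzyme that makes 25-hydroxycholesterol, had at most 8, 3 and 16 counts in STING KO, cGAS KO and WT, and the scavenger receptor Msr1 at most 3, 6 and 6. A count of 0 is compatible with up to 3 counts, or 0.141 to 0.212 CPM at these depths, a floor that covers counting error only.

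**Figure D1:**
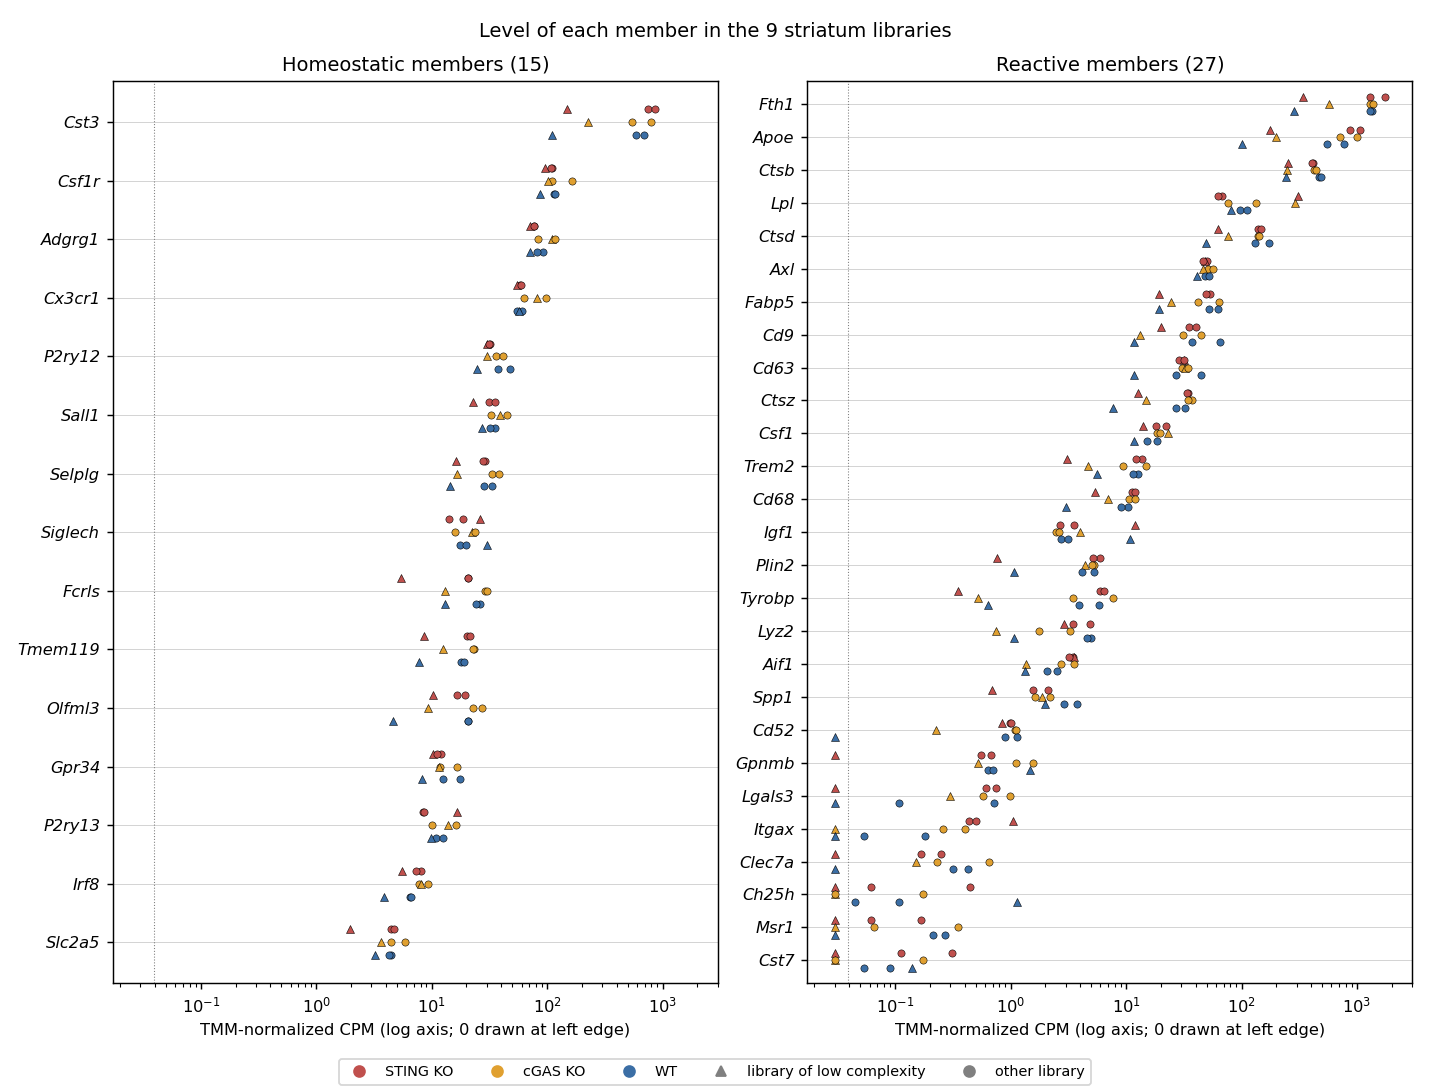
TMM-normalized CPM (log axis) of the 15 homeostatic members on the left and the 27 reactive members on the right, 1 point per library, with STING KO in red, cGAS KO in yellow and WT in blue. Triangles are the libraries of low complexity, and points at the left edge are libraries with 0 counts. The homeostatic members lie between 1.95 and 853 CPM, whereas Itgax, Clec7a, Ch25h, Msr1 and Cst7 at the bottom right stay at or under 1.13 CPM in every library.

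Between STING KO and WT, edgeR's quasi-likelihood test called 0 of the 15 homeostatic and 0 of the 22 reactive members tested, where 0.0% of all genes tested were called. At an unadjusted p under 0.05 the count was also 0 of 37, where 0.898% of all genes were higher and 0.735% lower at that level. DESeq2 and limma-voom called 0 members as well. The median log2 fold change of the homeostatic set was -0.06, with 5 of 15 positive, and that of the 22 reactive members was 0.16, with 15 of 22 positive. Over all genes tested the median was -0.0044, with 49.4% positive. The sign of neither set median was stable: the reactive one was -0.20 without WT replicate 3, and the homeostatic one was 0.02, 0.04 or 0.04 without WT replicate 1, WT replicate 2 or STING KO replicate 2.

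In cGAS KO versus WT, 0 of 37 members were called, where 0.0% of all genes were called, and DESeq2 and limma-voom called 0 members too. Cx3cr1, higher in cGAS KO, was the 1 member with an unadjusted p under 0.05, where 1.04% of all genes were higher and 0.982% lower at that level. The homeostatic median was 0.25, with 13 of 15 positive, and the reactive median was 0.19, with 15 of 22 positive, against a median of -0.0097 and 48.5% positive over all genes. The exceptions among the homeostatic genes were P2ry12 at a log2 fold change of -0.03 and Siglech at -0.13. The reactive median was -0.09 without WT replicate 3 and -0.04 without cGAS KO replicate 1.

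Between STING KO and cGAS KO, 0 of 37 members were called, where 0.0% of all genes were called, and DESeq2 and limma-voom called 0 members too. Cx3cr1 and Adgrg1, both lower in STING KO, had an unadjusted p under 0.05, where 0.825% of all genes were higher and 0.623% lower. The homeostatic median was -0.27 with 1 of 15 positive, Cst3, beside a median of 0.008 and 51.1% positive over all genes. The reactive median was -0.05, with 8 of 22 positive, and it was 0.24, 0.11 or 0.05 without STING KO replicate 2, cGAS KO replicate 1 or cGAS KO replicate 3. The 3 comparisons share libraries, so their values stand side by side and are not independent.

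Without the libraries of low complexity the fit has 6 libraries and 17657 genes tested, and 0 members were called in any comparison, where 0.0227% of all genes were called in STING KO versus WT, 0.0% in cGAS KO versus WT and 0.017% in STING KO versus cGAS KO. For STING KO versus WT, Apoe was higher and P2ry12, Spp1 and Lpl were lower at an unadjusted p under 0.05, or 1 and 3 of 37, where 4.02% of all genes were higher and 2.89% lower. In cGAS KO versus WT, Cx3cr1 was higher and Lyz2 lower, 1 of 37 each, where the shares of all genes were 2.44% and 1.77%. For STING KO versus cGAS KO, 6 of 37 were lower and 0 higher, where the shares of all genes were 1.7% and 1.99%. These 6 were the homeostatic members P2ry13, Cx3cr1, Olfml3 and Fcrls and the reactive members Gpnmb and Lpl, with log2 fold changes of -0.63, -0.46, -0.46, -0.50, -1.12 and -0.69 in that order and an edgeR adjusted p of 0.926 each.

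**Figure D2:**
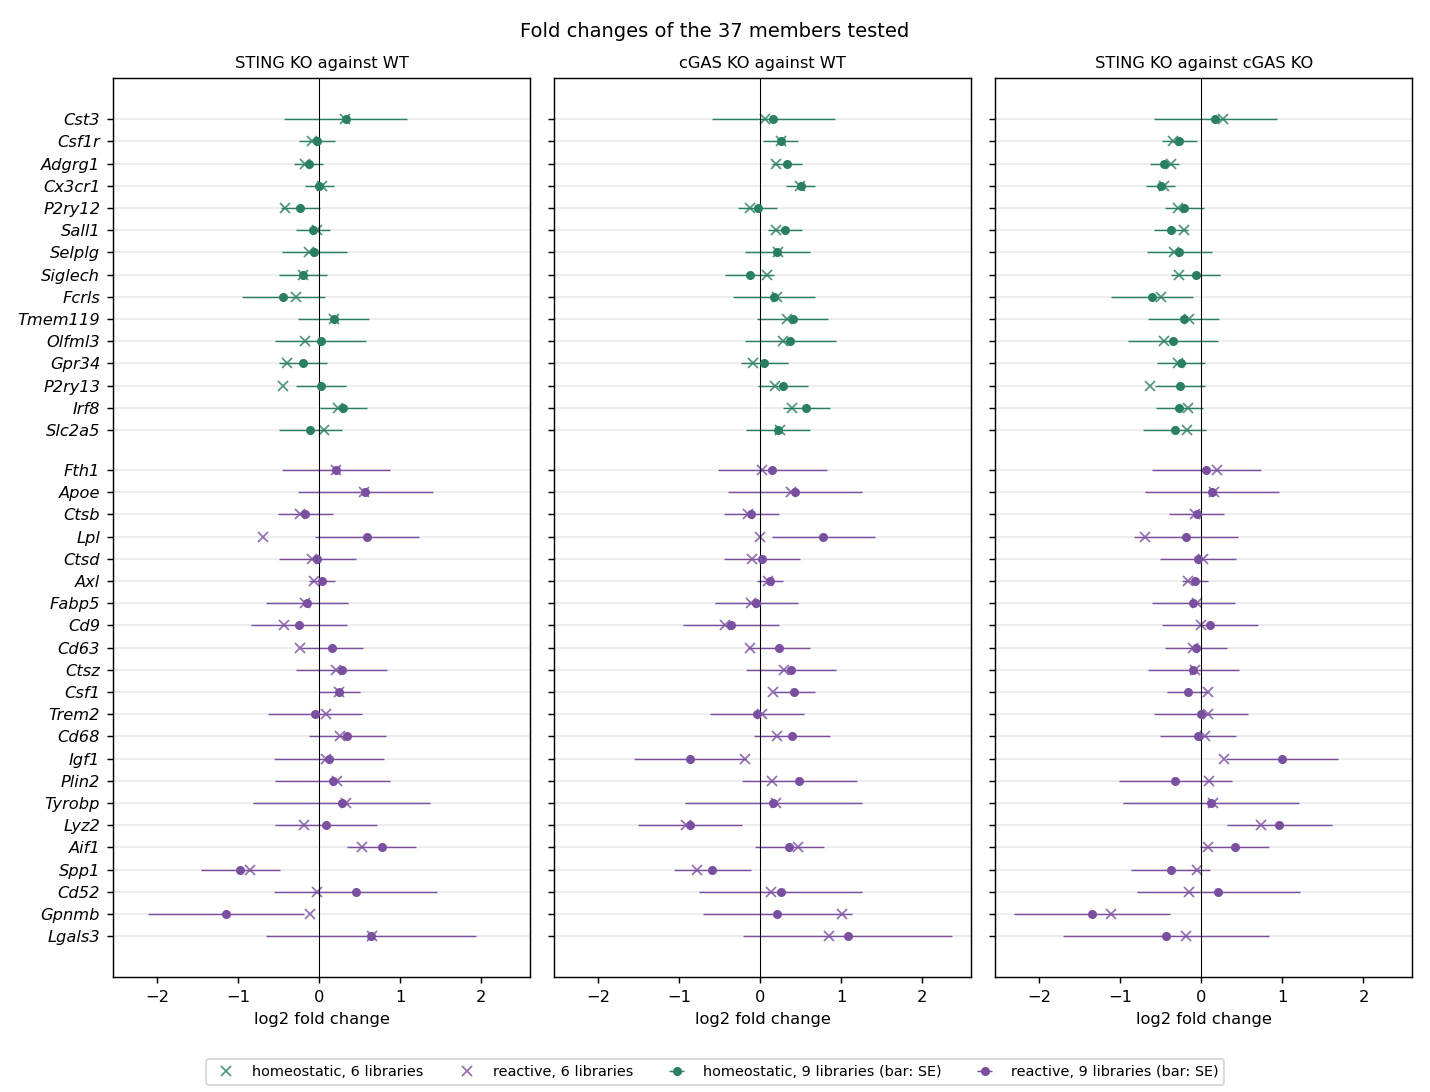
Log2 fold change of the 37 members tested in each comparison, homeostatic members above and reactive members below, each ordered by mean CPM. Circles are the fit over 9 libraries with bars of 1 SE, and crosses the fit without the 3 libraries of low complexity. In the right panel every homeostatic member except Cst3 lies left of 0 in both fits, while the reactive members fall on both sides.

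Cx3cr1, the fractalkine receptor, was the member whose cGAS KO libraries stood apart from both other groups in CPM. Cx3cr1 (ENSMUSG00000052336, GRCm38 chromosome 9, 119901616 to 120069879, minus strand) had 58.4, 54.3 and 59.1 CPM in STING KO, 63.0, 81.2 and 98.6 CPM in cGAS KO, and 60.1, 55.1 and 56.8 CPM in WT. In CPM all 3 cGAS KO libraries lay above every library of the other groups, while the STING KO and WT libraries covered the same range. In TPM the groups overlapped: WT replicate 3, at 59.3 TPM, lay above cGAS KO replicate 1, at 54.9 TPM. The means were 57.2 ± 2.60 in STING KO, 80.9 ± 17.8 in cGAS KO and 57.3 ± 2.52 in WT (CPM). In cGAS KO versus WT the log2 fold change of 0.50 had an SE of 0.18, and by edgeR's quasi-likelihood test the unadjusted p was 0.0211 and the adjusted p was 1.0. In STING KO versus cGAS KO it was -0.50 with an SE of 0.18, with an edgeR unadjusted p of 0.0208 and an adjusted p of 1.0. Without the libraries of low complexity these values were 0.49 (SE 0.20, edgeR adjusted p = 0.971) and -0.46 (SE 0.20, edgeR adjusted p = 0.926). Leaving out cGAS KO replicate 3 from the 9 brought them to 0.33 and -0.33, with edgeR unadjusted p of 0.107 and 0.109 and adjusted p of 1.0.

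The growth factor receptor Csf1r did not separate the groups. Csf1r (chromosome 18, 61100598 to 61132149, plus strand) was at 110, 94.8 and 107 CPM in STING KO, at 111, 101 and 165 CPM in cGAS KO, and at 114, 116 and 87.0 CPM in WT. The 165 CPM of cGAS KO replicate 3 was the highest value, and the other 8 libraries lay between 87.0 and 116 CPM in an overlapping range. Some of its exon sequence, 15.1% of the length, overlaps Hmgxb3 on the opposite strand, and the strand setting of the authors' counting was not given in the sources used here. The ratio of Cx3cr1 to Csf1r in TPM was 0.682, 0.734 and 0.709 in STING KO, 0.731, 1.03 and 0.764 in cGAS KO, and 0.676, 0.606 and 0.836 in WT. These ratios overlapped between the groups.

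Among the G-protein-coupled receptors, P2ry12, the ADP receptor that directs microglial processes to injury (chromosome 3, 59216272 to 59262871, minus strand), had 32.1, 29.9 and 31.4 CPM in STING KO, 36.0, 30.1 and 41.5 CPM in cGAS KO, and 37.5, 47.6 and 24.6 CPM in WT. The WT libraries spread wider than both deficient groups and enclosed them, and WT replicate 3 was the lowest of all 9. Adgrg1, an adhesion receptor that neural precursors and other glia also carry (chromosome 8, 94974751 to 95014217, plus strand), was at 77.1, 71.1 and 77.3 CPM in STING KO, at 82.7, 111 and 117 CPM in cGAS KO, and at 92.1, 82.4 and 71.3 CPM in WT. The STING KO libraries lay below every cGAS KO library, with a log2 fold change of -0.46 (SE 0.18, edgeR unadjusted p = 0.0293, adjusted p = 1.0), and the WT libraries overlapped both. The fit without the libraries of low complexity gave -0.37 (SE 0.17, edgeR unadjusted p = 0.0643, adjusted p = 0.926). P2ry13, another ADP receptor, was at 8.38, 16.6 and 8.65 CPM in STING KO, at 10.1, 13.8 and 16.3 CPM in cGAS KO, and at 10.8, 12.5 and 9.82 CPM in WT. Its highest value was in STING KO replicate 2, a library of low complexity, and without those libraries STING KO was below both other groups, with log2 fold changes of -0.45 against WT and -0.63 against cGAS KO. That order rests on few libraries per group, and the share of all genes with it was not counted. Gpr34, a receptor for lysophosphatidylserine, ranged from 8.19 to 17.7 CPM with overlapping groups.

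The 2 transcription factors among the members had their highest means in cGAS KO. Sall1 was at 31.4, 22.8 and 35.1 CPM in STING KO, at 32.4, 39.2 and 44.7 CPM in cGAS KO, and at 35.5, 31.7 and 27.4 CPM in WT, and the groups overlapped. Irf8, a factor of the myeloid lineage that interferon also induces, was at 8.01, 5.50 and 7.37 CPM in STING KO, at 7.82, 8.06 and 9.35 CPM in cGAS KO, and at 6.45, 6.65 and 3.89 CPM in WT. Its cGAS KO libraries did not overlap those of WT, with a log2 fold change of 0.57 (SE 0.29) that did not reach an unadjusted p of 0.05, and with 0.39 in the fit without the libraries of low complexity. Cx3cr1 and Irf8 were the 2 of 37 members whose cGAS KO libraries all lay above WT, where 4.0% of all genes did so, and 0 lay below, where 4.0% did. In STING KO versus cGAS KO, Cx3cr1 and Adgrg1 were 2 of 37 with no overlap on the lower side, where 3.72% of all genes did so, and 0 on the higher side, where 3.63% did. Between STING KO and WT, Aif1 was 1 of 37 with no overlap on the higher side, against 3.4% of all genes, and 0 lay on the lower side, against 3.67%. These shares lie near the background of all genes.

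Most of the other surface and secreted homeostatic genes were lowest in the library of low complexity of each group. Fcrls was at 20.8, 5.43 and 20.8 CPM in STING KO, at 28.8, 13 and 30.2 CPM in cGAS KO, and at 26.3, 24.4 and 13.1 CPM in WT. Its lowest library in each group was the one of low complexity, and between the other 6 libraries STING KO lay below cGAS KO and WT. Few libraries per group stand behind that order, and the share of all genes with such an order was not counted. Without the libraries of low complexity, STING KO set against cGAS KO gave a log2 fold change of -0.50 (SE 0.15, edgeR unadjusted p = 0.00847, adjusted p = 0.926). Tmem119 ranged from 7.70 to 23.1 CPM, Olfml3, a secreted olfactomedin-domain protein, from 4.66 to 27.1 CPM, and Selplg, the ligand of P-selectin, from 14.5 to 38.5 CPM, and each was lowest in its group's library of low complexity. Slc2a5 ranged from 1.95 to 5.82 CPM with the same low libraries. Siglech, a sialic acid-binding lectin, was instead highest in WT replicate 3 and STING KO replicate 2, at 18.6, 26.3 and 14.2 CPM in STING KO, 15.9, 22.5 and 23.7 CPM in cGAS KO, and 17.6, 19.9 and 30.4 CPM in WT. Cst3 was at 752, 149 and 853 CPM in STING KO, at 794, 227 and 538 CPM in cGAS KO, and at 692, 590 and 110 CPM in WT, and so lay lowest in the same 3 libraries.

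In the reactive set, Trem2 and its adaptor overlapped between the genotypes and differed widely between libraries. Trem2 was at 13.7, 3.06 and 12.1 CPM in STING KO, at 15, 4.67 and 9.35 CPM in cGAS KO, and at 12.7, 11.4 and 5.65 CPM in WT. Tyrobp was at 5.90, 0.348 and 6.47 CPM in STING KO, at 7.70, 0.527 and 3.47 CPM in cGAS KO, and at 5.86, 3.91 and 0.636 CPM in WT. Both were lowest in the library of low complexity of each group, Tyrobp far more so than Trem2. The ratio of Trem2 to Tyrobp in TPM was 1.19 in STING KO replicate 2, 1.19 in cGAS KO replicate 2 and 1.20 in WT replicate 3, against 0.252 to 0.393 in the other 6 libraries. A ratio between a receptor and its partner thus separated these 3 libraries from the rest in every genotype and did not separate the genotypes.

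The lipid genes of the reactive programme differed in opposite directions across libraries. Apoe was at 1056, 175 and 862 CPM in STING KO, at 1005, 199 and 706 CPM in cGAS KO, and at 768, 545 and 100 CPM in WT. Lpl, the lipoprotein lipase that neurons also make, was at 67.5, 306 and 62.7 CPM in STING KO, at 75.9, 288 and 134 CPM in cGAS KO, and at 97.6, 112 and 80.8 CPM in WT. Apoe was lowest in all 3 libraries of low complexity, and Lpl was highest in STING KO replicate 2 and cGAS KO replicate 2. For Lpl, WT replicate 3 was the lowest WT library, though STING KO replicates 1 and 3 and cGAS KO replicate 1 were lower still. The Lpl log2 fold change in STING KO versus WT was 0.59 (SE 0.64) over 9 libraries and -0.69 without the libraries of low complexity, where the edgeR unadjusted p was 0.0194 and the adjusted p was 0.679. For Apoe in the same comparison both fits gave a positive value, 0.57 (SE 0.83, edgeR adjusted p = 1.0) over 9 libraries and 0.55 (SE 0.24, edgeR adjusted p = 0.720) without those libraries. Fabp5, a fatty acid-binding protein, ranged from 19.1 to 63.4 CPM, and Plin2, a coat protein of lipid droplets, from 0.765 to 5.90 CPM, with overlapping groups.

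Among the secreted ligands and growth factors, Spp1 was at 1.55, 0.696 and 2.12 CPM in STING KO, at 2.20, 1.88 and 1.64 CPM in cGAS KO, and at 2.89, 3.75 and 1.98 CPM in WT. Only 1 STING KO library exceeded the lowest WT library, and the log2 fold change in STING KO versus WT was -0.97 (SE 0.49) over 9 libraries and -0.85 without those of low complexity. Igf1, a growth factor that neurons make as well as reactive microglia, was at 2.67, 12 and 3.52 CPM in STING KO, at 2.49, 3.99 and 2.62 CPM in cGAS KO, and at 2.71, 3.11 and 10.9 CPM in WT. It was the 1 member that was highest in the library of low complexity of all 3 groups. Csf1, the ligand of CSF1R, ranged from 11.7 to 23.1 CPM with overlapping groups. Lgals3 stayed under 1 CPM in every library, and Gpnmb, a lysosomal glycoprotein of lipid-laden macrophages, reached at most 0.670, 1.56 and 1.48 CPM in STING KO, cGAS KO and WT.

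For the phagocytic receptors, lysosomal and surface proteins that passed the count filter, the genotypes overlapped. Axl, a receptor for the bridging protein GAS6 that vascular cells also carry, was at 50.5, 48.2 and 46.2 CPM in STING KO, at 51.4, 45.9 and 56.2 CPM in cGAS KO, and at 48.5, 51.9 and 41.2 CPM in WT. Its narrow spread, 37 to 41.3 TPM, included the libraries of low complexity. Cd68, a lysosomal protein of macrophages, ranged from 3.04 to 11.9 CPM, Ctsb from 242 to 490 CPM, Ctsd from 49.0 to 172 CPM and Ctsz from 7.63 to 37.2 CPM, and the genotypes overlapped for each. Lyz2, lysozyme of myeloid cells, was at 4.90, 2.92 and 3.46 CPM in STING KO, at 3.24, 0.754 and 1.77 CPM in cGAS KO, and at 4.96, 4.56 and 1.06 CPM in WT. Without the libraries of low complexity Lyz2 had a log2 fold change of -0.92 in cGAS KO versus WT, with an SE of 0.35 and an edgeR adjusted p of 0.971. Cd9 and Cd63, membrane proteins of the tetraspanin family, ranged from 11.7 to 64.6 CPM and from 11.7 to 44.3 CPM, Cd52, a small surface glycoprotein of leukocytes, from 0 to 1.13 CPM, and the ferritin gene Fth1 from 283 to 1745 CPM. For Ctsd, Ctsb, Cd9, Cd52, Spp1 and Ch25h, 10.7% to 34.4% of the exon length overlaps another annotated gene, so their counts are uncertain where reads could be assigned to either.

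Aif1, the gene of the microglial stain IBA1, was at 3.48, 3.55 and 3.18 CPM in STING KO, at 3.53, 1.36 and 2.75 CPM in cGAS KO, and at 2.07, 2.52 and 1.34 CPM in WT. All 3 STING KO libraries lay above every WT library, and the cGAS KO libraries spanned both. The log2 fold change in STING KO versus WT was 0.77 with an SE of 0.43, which did not reach an unadjusted p of 0.05, and without the libraries of low complexity it was 0.53.

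The 2 sets were then compared as means of log2 CPM in each library, as a description with no test. The homeostatic mean was 4.83, 4.25 and 4.80 in STING KO, 4.94, 4.62 and 5.25 in cGAS KO, and 4.89, 4.94 and 4.17 in WT. The mean of the 22 reactive members was 4.15, 3.10 and 4.17 in STING KO, 4.25, 3.33 and 4.10 in cGAS KO, and 4.24, 4.02 and 2.81 in WT. The lowest value of each set in each group was in the library of low complexity, and the highest homeostatic mean of all 9 was that of cGAS KO replicate 3. The reactive mean minus the homeostatic mean was -0.68, -1.15 and -0.64 in STING KO, -0.69, -1.29 and -1.15 in cGAS KO, and -0.65, -0.93 and -1.35 in WT. The difference overlapped between all 3 genotypes, and the library of low complexity had the most negative difference in each.

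**Figure D3:**
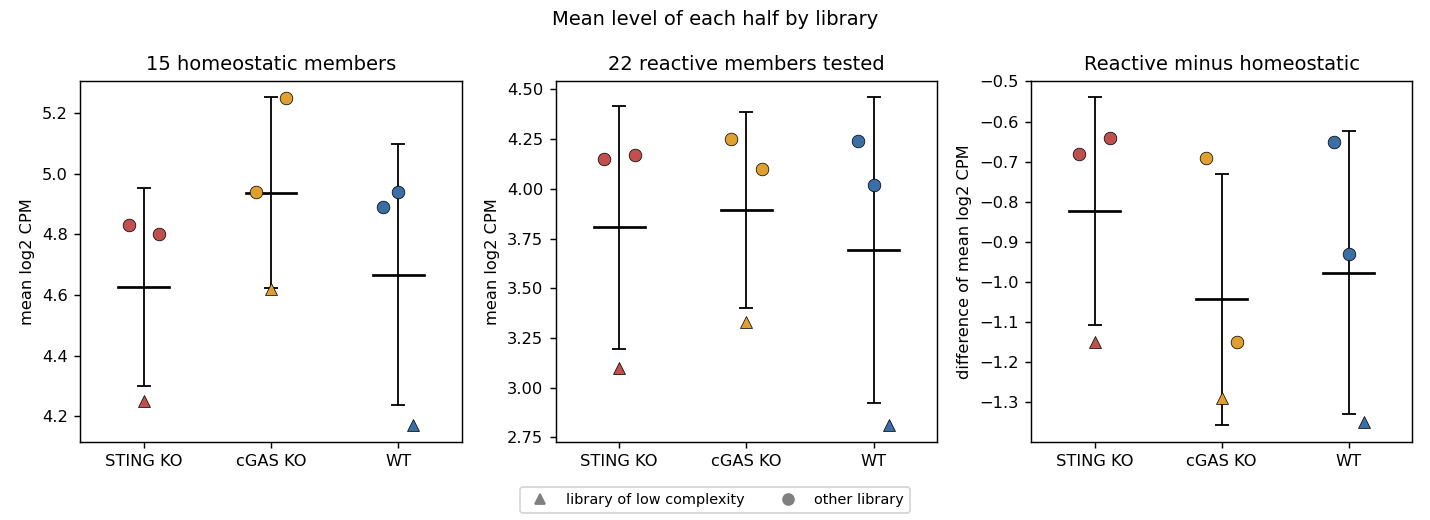
Mean log2 CPM of the 15 homeostatic members, of the 22 reactive members tested, and their difference, 1 point per library and STING KO, cGAS KO and WT from left to right, with bars for mean ± SD (n = 3). Triangles are the libraries of low complexity, which have the lowest reactive mean of each group, and the homeostatic mean of cGAS KO replicate 3 (5.25) is the highest of all.

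Between genotypes, the reactive median fold change minus the homeostatic one was 0.23 in STING KO versus WT, -0.06 in cGAS KO versus WT and 0.22 in STING KO versus cGAS KO. Leaving out the libraries of low complexity, it was 0.16, -0.16 and 0.30 in the same comparisons. In that fit the homeostatic medians were -0.12, 0.21 and -0.29 and the reactive medians 0.04, 0.06 and 0.01, with 5, 13 and 1 of 15 and 11, 14 and 12 of 22 positive. Over all genes in that fit, 50.2%, 49.6% and 50.8% were positive. For the 12 homeostatic members largely restricted to myeloid cells in the brain, the medians over 9 libraries were -0.05, 0.26 and -0.27, and in STING KO versus cGAS KO 0 of the 12 were positive. For the 8 restricted reactive members tested, the medians were 0.31, 0.23 and 0.05. The summed CPM of the 12 restricted homeostatic members was 368, 301 and 361 in STING KO, 396, 358 and 535 in cGAS KO, and 387, 405 and 288 in WT. The sum over the restricted reactive members, the filtered ones included, was 42.6, 17.2 and 40.9 in STING KO, 44.7, 15.4 and 33.4 in cGAS KO, and 39.1, 34.3 and 14.5 in WT. Both sums overlapped between the genotypes.

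The homeostatic median of 0.25 in cGAS KO versus WT was lower without either of 2 libraries, cGAS KO replicate 3 or WT replicate 3. cGAS KO replicate 3 was the highest of all 9 libraries for 9 of 15 homeostatic members and the highest cGAS KO library for 13 of 15, but the highest of all 9 for 2 of 22 reactive members. Without cGAS KO replicate 3 the homeostatic median was 0.07 in cGAS KO versus WT and -0.09 in STING KO versus cGAS KO. Without WT replicate 3, which was the lowest of all 9 for 8 of 15 homeostatic members, the median in cGAS KO versus WT was 0.09. Markers of some other cell types were also high in cGAS KO replicate 3, and those of others were not. The sum of 12 endothelial and mural markers reached 630 CPM there, where the groups ranged from 463 to 530 in STING KO, 511 to 630 in cGAS KO and 548 to 588 in WT (CPM). The sum of 12 medium spiny neuron markers reached 10793 CPM there, where the ranges were 8812 to 9397 in STING KO, 8889 to 10793 in cGAS KO and 5273 to 9881 in WT (CPM). The sums of erythrocyte and of perivascular macrophage markers were also highest of all 9 libraries there, at 211 and 52.5 CPM. That of 12 oligodendrocyte markers, at 12956 CPM, was the lowest of cGAS KO, where WT reached 18633 CPM, and the choroid plexus sum lay below the highest WT library. The sum of 12 astrocyte markers, at 6222 CPM, was the highest of cGAS KO. Among the other libraries only WT replicate 3, of low complexity, was higher, at 8368 CPM. The part of these cell types in the homeostatic values was not tested.

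The libraries of low complexity differed from the rest more in the reactive set than in the homeostatic set. In log2 CPM, the library of low complexity minus the other libraries of its group, averaged over the 3 groups, had a median of -1.29 over the 22 reactive members, -0.43 over the 15 homeostatic members and -0.07 over all genes. The library of low complexity was the lowest of its group in all 3 groups for 14 of 22 reactive and 9 of 15 homeostatic members, together 62.2% of the 37, against 23.7% of all genes. Tyrobp had the most negative value of the members at -3.16, followed by Apoe at -2.41 and Cst3 at -2.16. Igf1 at 1.47, Lpl at 1.13, Siglech at 0.53 and P2ry13 at 0.27 were the positive ones, and Cx3cr1 and Adgrg1 were nearly level at -0.03 and -0.08. Genes with less merged exon sequence had lower values. Members with less than 2000 bases of exon had a median of -1.54 (n = 9) and longer ones -0.59 (n = 28), and over all genes these medians were -0.55 and -0.02. Spearman's rho between length and this value was 0.57 over the 37 members and 0.38 over all genes, a description across genes that share the same libraries. It was 0.61 over the 22 reactive members and 0.24 over the 15 homeostatic ones, of which 1, Cst3, has less than 2000 bases. The shortest of these members, Tyrobp, has 667 bases, whereas Igf1 and Lpl have 9904 and 10478.

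**Figure D4:**
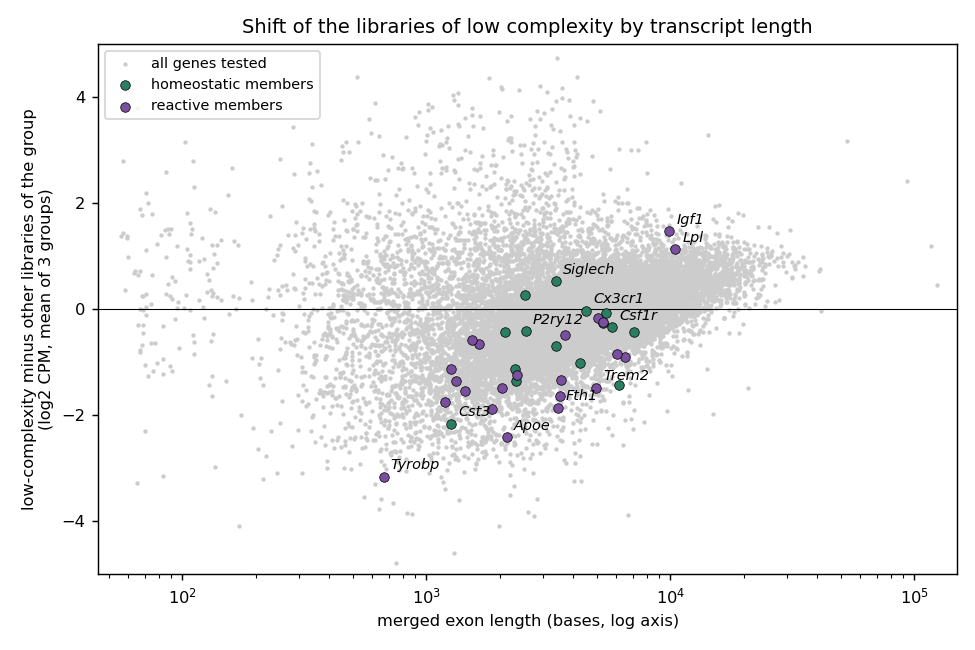
Difference between the library of low complexity and the other libraries of its group (log2 CPM, mean of the 3 groups) against exon length (bases, log axis), with all genes tested in grey, homeostatic members in green and reactive members in purple. Tyrobp (667 bases) lies lowest of the members at -3.16, and the long Lpl and Igf1 lie highest at 1.13 and 1.47.

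Genes that work with the members gave a similar picture. Of 20 genes of TREM2, CSF1R and phagocytosis signalling, 19 were tested and 0 were called in any comparison. Their median log2 fold changes were -0.09 in STING KO versus WT, -0.02 in cGAS KO versus WT and -0.10 in STING KO versus cGAS KO, and 0.02, 0.03 and -0.08 without the libraries of low complexity. The 2 most abundant were Gas6, a bridging protein between dying cells and phagocytes, and Mertk, a receptor of GAS6 by which astrocytes and microglia take up debris. Gas6 averaged 80.3 ± 12.1 in STING KO, 81.2 ± 3.06 in cGAS KO and 74.5 ± 30.4 in WT (CPM). Mertk was at 41.6, 36.1 and 44.8 CPM in STING KO, at 51.8, 46.0 and 57.4 CPM in cGAS KO, and at 57.7, 68.6 and 75.3 CPM in WT. The 3 groups did not overlap, with STING KO lowest and WT highest. The margins were small, 44.8 against 46.0 CPM between STING KO and cGAS KO and 57.4 against 57.7 CPM between cGAS KO and WT. The share of all genes with such an order was not counted. The log2 fold change of Mertk in STING KO versus WT was -0.72 with an SE of 0.17 (edgeR unadjusted p = 0.00219, adjusted p = 1.0). Mertk was the 1 gene of the 19 tested with an unadjusted p under 0.05, where 0.735% of all genes were lower at that level. The 12 astrocyte markers had a median of -0.14 in that comparison, with 3 of 12 positive. Of these, Gjb6 was lower at -0.69 (SE 0.17, edgeR unadjusted p = 0.00257). All 3 STING KO libraries lay below every WT library, where 3.67% of all genes did so. Gjb6 was lower in cGAS KO versus WT as well, at -0.59 (SE 0.17, edgeR unadjusted p = 0.00638), and was not called in either comparison. Pdgfra of the oligodendrocyte list and Slco1a4 of the endothelial and mural list were also lower in STING KO versus WT at an unadjusted p under 0.05, at -0.44 and -0.45. In cGAS KO versus WT they were at -0.19 and -0.40, and Slco1a4 had an edgeR unadjusted p of 0.0491 there. The part of these cell types in the Mertk values was not tested. Il34, the other ligand of CSF1R, averaged 41.4 ± 12.9 in STING KO, 39.6 ± 7.16 in cGAS KO and 39.7 ± 4.79 in WT (CPM).

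Of 25 further microglial identity genes, 24 were tested and 0 called, with medians of -0.07, 0.06 and -0.14 in STING KO versus WT, cGAS KO versus WT and STING KO versus cGAS KO. Leaving out the libraries of low complexity, these were -0.19, 0.03 and -0.16. The most abundant, the transcription factors Mef2a and Mef2c, are neuronal as well. C1qa, a subunit of the complement initiator C1q, was at 35.8, 4.94 and 27.8 CPM in STING KO, at 33.4, 3.84 and 23.2 CPM in cGAS KO, and at 26.2, 21.7 and 3.11 CPM in WT, and so was lowest in the same 3 libraries as Tyrobp.

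Of 24 further genes of reactive phagocytes, 15 were tested and 0 called, with medians of -0.03, -0.08 and 0.16, and of -0.17, -0.09 and -0.05 without the libraries of low complexity. In 9 of the 24 no library reached 1 CPM. The cytokine gene Tnf had 0 counts in all 9 libraries, and the chemokine gene Ccl2 reached at most 0.0654 CPM and the cytokine gene Il1b at most 0.678 CPM. The most abundant were the lysosomal protein gene Ctsa, at 87.2 ± 19.6 in STING KO, 92.9 ± 15.3 in cGAS KO and 82.7 ± 29.7 in WT (CPM), and the cholesterol exporter gene Abca1, at 81.0 ± 39.0 in STING KO, 69.4 ± 19.1 in cGAS KO and 82.6 ± 29.3 in WT (CPM).

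Markers of phagocytes that enter from the blood were low. Of 10 markers of infiltrating monocytes, 8 stayed under 1 CPM in every library, with Ccr2 at most 0.429 CPM, and the list's sum of 42.5 to 83.4 in STING KO, 45.6 to 74.2 in cGAS KO and 53.3 to 80.7 in WT (CPM) was mostly Vcan, which oligodendrocyte precursors also make. Of 10 neutrophil markers, 9 stayed under 1 CPM and Ly6g had 0 counts in all libraries. The exception, Csf3r, ranged from 4.59 to 10.5 CPM. Of 10 lymphocyte markers 0 passed the filter, and their sums were 0.502 to 1.86 in STING KO, 0.850 to 1.10 in cGAS KO and 0.141 to 0.676 in WT (CPM). Of 10 markers of perivascular and meningeal macrophages, 4 were tested and 0 called, with sums of 36.7 to 44.8 in STING KO, 40.6 to 52.5 in cGAS KO and 41.0 to 45.3 in WT (CPM). Cd163, a haemoglobin scavenger receptor of those cells, averaged 14.2 ± 5.32 in STING KO, 15.9 ± 5.83 in cGAS KO and 14.4 ± 1.15 in WT (CPM). Over all 9 libraries the sums overlapped between the genotypes for monocytes, neutrophils and perivascular macrophages. Those of the endothelial and mural markers lay lower in STING KO, at 463 to 530 CPM, than in WT, at 548 to 588 CPM. The lymphocyte sums of cGAS KO all lay above those of WT, at 1.10 CPM or less, and the highest of all was in a STING KO library. Without the libraries of low complexity, the perivascular and meningeal macrophage sums were 36.7 to 37.5 in STING KO, 40.6 to 52.5 in cGAS KO and 41.0 to 45.3 in WT (CPM), so STING KO lay below both other groups. The endothelial and mural sums also lay lowest in STING KO, at 463 against 515 to 630 in cGAS KO and 554 to 588 in WT (CPM). Few libraries remained per group, and the share of all genes with such an order was not counted. The monocyte sums, mostly Vcan, were then 42.5 to 46.7 in STING KO, 45.6 to 56.0 in cGAS KO and 53.3 to 58.6 in WT (CPM), and STING KO lay below WT. The part of these cells in the homeostatic values of STING KO was not tested.

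Markers of the other brain cells that make some of the abundant members were present throughout, and 0 genes of these lists were called. The median log2 fold changes of 12 astrocyte markers were -0.14, -0.17 and -0.02 in STING KO versus WT, cGAS KO versus WT and STING KO versus cGAS KO. Those of 12 oligodendrocyte markers were -0.18, 0.16 and -0.33, and those of the 12 endothelial and mural markers were -0.07, 0.10 and -0.22. In STING KO versus cGAS KO, 0 of 12 oligodendrocyte markers and 2 of 12 endothelial and mural markers were positive, beside 1 of 15 homeostatic members. Among the other lists, 3 of 12 medium spiny neuron and 0 of 5 erythrocyte markers were positive over 9 libraries. So were 6 of 12 astrocyte, 5 of 8 fibroblast and meningeal and 8 of 8 choroid plexus markers. Of the further microglial identity genes tested, 10 of 24 were positive. The lower homeostatic values of STING KO versus cGAS KO stood beside lower values of some lists and not of others. The part of tissue composition in the homeostatic values was not tested. The 8 choroid plexus markers, with sums of 62.9 to 518 in STING KO, 28.6 to 221 in cGAS KO and 34.5 to 2793 in WT (CPM), varied widely between libraries, and their medians were -0.82, -2.34 and 1.03. The medians of the 12 medium spiny neuron markers were 0.17, 0.26 and -0.08, those of 8 fibroblast and meningeal markers -0.11, -0.12 and 0.03, and those of the 5 erythrocyte markers tested 0.15, 0.53 and -0.40. Several of these medians changed sign or size without the libraries of low complexity. The choroid plexus medians were then -3.69, -2.49 and -0.97, so that the one in STING KO versus cGAS KO turned negative. Those of medium spiny neurons were -0.05, 0.08 and -0.09, those of fibroblasts and meninges -0.38, -0.22 and -0.40, and those of erythrocytes -0.47, 0.07 and -0.50. The oligodendrocyte medians were -0.30, -0.08 and -0.25, the endothelial and mural ones -0.14, 0.08 and -0.26, and the astrocyte ones -0.16, -0.06 and -0.02.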

How the data were processed

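PolyA+ libraries were made from Trizol-extracted RNA and read as pairs, per the labels' protocols. The submitters' processing notes name HISAT2, featureCounts and the mm10 build. Tool versions, annotation release, strand setting and the handling of reads with several matches were not given in the sources used here. The authors deposited raw counts per gene, with a file for each sample, and whole values with unequal totals show no normalization. GENCODE M21 on GRCm38 holds 54495 of the 54532 gene IDs, and the 37 others took at most 0.036% of the counts of any library. Groups and replicate numbers were read from titles and treatment labels. Libraries of a group differed by more than sampling noise in chi-square tests.

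The test was edgeR's quasi-likelihood F test (edgeR 4.0.16, R 4.3.3) with all 9 libraries in 1 fit, 6 residual degrees of freedom, TMM factors and the filterByExpr filter. The threshold was 0.05 on p-values adjusted by Benjamini-Hochberg over all genes tested. Log2 CPM values have a prior count of 2, TPM were computed from merged exon lengths, and each SE was derived from the fold change and the F statistic. Alternatives were DESeq2 1.42.0 without a count filter, limma-voom (limma 3.58.1), other scalings, other filters, a fit of the 6 libraries compared, a block for the replicate number, fits without each library or without the 3 libraries of low complexity, and other divisions of the members. Whether equal replicate numbers pair the samples could not be decided. Deviations from the group means correlated at 0.06 or less in 5 of 9 same-numbered pairs and at 0.33 to 0.5 in the rest. They followed the libraries of low complexity, which correlated at 0.47 to 0.53 with each other whatever their number.

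The members, the lists of other genes and the libraries of low complexity were chosen with earlier results of these data known. Trem2 was placed in the reactive set and Irf8 in the homeostatic set by their known roles. All 42 members are named, and a list is shown by its count called, its median and up to 2 members of highest mean CPM. C1qa, Il34, Gjb6, Pdgfra, Tnf, Ccl2, Il1b, Ccr2 and Ly6g were named after their values were seen, as were the pairs of genes in ratios. Gjb6 and Pdgfra were picked for an unadjusted p under 0.05. Promoter sequences are from RefSeq on GRCm38.p6, matched by symbol, and of a member with several windows 1 is shown.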

Additional observations from a re-analysis of the deposited data

How the results depend on the processing

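The count of members called was 0 in every comparison under every alternative run, and the smallest adjusted p of any member over them was 0.679 in STING KO versus WT, 0.96 in cGAS KO versus WT and 0.926 in STING KO versus cGAS KO. Over all genes, where edgeR with 9 libraries called 0 in each comparison, DESeq2 without a count filter called 10 in STING KO versus WT, 1 in cGAS KO versus WT and 8 in STING KO versus cGAS KO. Without a count filter edgeR called 4 in STING KO versus WT and 4 in STING KO versus cGAS KO, and without the 3 libraries of low complexity 4 and 3. The causes were not tested. Every set median moved by less than 1 SD of the set's library means (0.36 homeostatic, 0.63 reactive) under every alternative, a wide margin beside medians of 0.27 or less. Leaving out single libraries, the homeostatic median ranged between -0.18 and 0.04 in STING KO versus WT, 0.07 and 0.39 in cGAS KO versus WT, and -0.41 and -0.09 in STING KO versus cGAS KO. The reactive median ranged between -0.20 and 0.48, -0.09 and 0.43, and -0.27 and 0.24 in the same comparisons, and with no scaling factor it was 0.03 in STING KO versus cGAS KO. With Trem2 counted as homeostatic the reactive medians were 0.17, 0.21 and -0.06. With the replicate number as a block, 0 members were called, so the block changed no call. The homeostatic medians were then -0.10, 0.22 and -0.28 and the reactive ones 0.05, 0.11 and -0.06. Whether the numbers pair the samples could not be decided. Depth limits the 5 untested reactive members and other genes near 1 CPM. The spread of 3 libraries per group limits the rest.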
